A study of Caenorhabditis elegans with 2 samples.

Results

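Sensory cilia of the nematode Caenorhabditis elegans are built by a small group of well-studied genes. Binding of the homeobox protein CEH-82 was examined near the 5' ends of 69 genes from name classes that hold many of them. These 69 are called ciliary genes here, though some do not build cilia. The genes were chosen by name. They are the protein-coding genes called bbs, dyf, ift, che, osm, mks, mksr, nphp, xbx or arl plus a number, together with daf-10, daf-19, klp-11 and kap-1, and they make up 69 of the 19973 protein-coding genes on the 6 nuclear chromosomes. The rule uses names, and the genes were chosen with earlier results of these data known.

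The assay was ChIP-seq, in which DNA that is crosslinked to a protein is recovered with an antibody and sequenced. It was applied to CEH-82 fused to enhanced green fluorescent protein (eGFP) in whole L1 larvae of mixed sex, the first larval stage. The strain was OP212, which carries the transgene ddEx58 in an unc-119(ed3) background. A name of that form usually marks an extrachromosomal array, which worms can lose in some cells. There was 1 group of 2 biological replicates, so no conditions were compared. Because whole larvae were used, strong binding in a few cells and weak binding in many cells cannot be told apart.

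Cilia in this animal are found on sensory neurons. They are assembled by intraflagellar transport (IFT), in which motor proteins carry trains of cargo along the ciliary microtubules. The IFT-B complex moves outward with kinesin motors, the IFT-A complex is needed for the return with dynein, and the BBSome couples membrane proteins to both. The transition zone gates the base of the cilium. The RFX transcription factor DAF-19 switches on many of these genes through the X-box, a short site usually found close upstream of the gene. Mutants with defective cilia fail to take up dye or to sense chemicals and osmotic strength, and from these defects the genes got the names dyf, che and osm. Such names also cover genes that do not build cilia, such as the ASE neuron transcription factor che-1, the TRPV channel osm-9, the secreted Notch co-ligand osm-11 and the GTPases arl-1 and arl-8 of the Golgi and lysosome. The 52 genes with a named role were therefore also counted alone. That set still includes che-1, arl-1 and arl-8.

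Peaks were taken from the authors' list of optimal peaks, 3913 in number, which the authors thresholded by the irreproducible discovery rate (IDR). Signal in this list ranged from 27.6 to 595, with a median of 55.7, and it was compared only by rank within a list. The list called on both replicates pooled held 16974 peaks and included background by its own label, with signals from 9.43 and a median of 13.7. The lists of the replicates held 24014 and 30000 peaks. No read counts are given, so depth is unknown. A gene was called bound when a peak summit lay in a window running from 1000 bp before to 200 bp past the start of any transcript (the 5' end). Many annotated 5' ends of this species are sites of trans-splicing and lie downstream of where transcription starts.

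The share of ciliary genes with a CEH-82 peak was near that of all genes. Of the 69 genes, 9 had an optimal summit in a window (13%), and the same rule called 16% of all protein-coding genes. Among the strongest 3913 peaks of each replicate, 8 ciliary genes were bound in replicate 1 and 10 in replicate 2. The mean was 9.0 ± 1.41 genes (SD, n = 2), or 13% ± 2.05, and 8 genes were bound in both. The share of all genes lay outside 1 SD of that mean, and no test was made on 2 replicates. The 9 genes were ift-43, daf-10 and dyf-2 of IFT-A, ift-81 and dyf-3 of IFT-B, the kinesin gene klp-11, the GTPase gene arl-8, the transcription factor gene daf-19, and xbx-6. Of the 52 genes with a named role, 8 were bound (15.4%). The replicates gave 7 and 8.

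The following sequences were read from the RefSeq genome of assembly WBcel235 (ce11), to which all coordinates refer. The first set holds the X-box matches of ciliary genes that had an optimal summit, with that of xbx-6 lying downstream of the summit and outside the start window used for counting. The 14 bases that match the X-box are in capitals, and 5 bases stand on either side. They are shown because the X-box is the kind of site through which DAF-19 is known to act on many ciliary genes. Whether DAF-19 acts at these matches was not tested.
daf-10, chrIV:9146255-9146278, minus strand: tgtgaATCTCCATAGCAACcaatg
daf-19, chrII:10169412-10169435, minus strand: ttttgGTTTCCATGGAAACtactt
dyf-3, chrIV:3399193-3399216, minus strand: agggaGTTTCTATGGGAACggagg
xbx-6, chrV:9705204-9705227, plus strand: accatGTTTCCATGGAAACtcgag

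The second set comes from ciliary genes without an optimal summit in a window, 1 or more each from IFT-A (che-11), IFT-B (osm-5, osm-6, dyf-11), the BBSome (osm-12, bbs-4) and the transition zone (nphp-4, mks-2). These genes hold X-box matches of the same form.
che-11, chrV:12150756-12150779, minus strand: gcaaaATCTCCATGGCAACcaaaa
osm-5, chrX:2984158-2984181, plus strand: acataGTTACTATGGCAACgctcc
osm-6, chrV:11927488-11927511, minus strand: cacatGTTACCATAGTAACcactc
dyf-11, chrX:763569-763592, plus strand: aggtgGTCTCCATGACAACgtgcc
osm-12, chrIII:12202539-12202562, minus strand: ctcatGTTGCCATAGTAACtcgac
bbs-4, chrIII:9612237-9612260, minus strand: cgcgaGTTTCCATGGCAACggcaa
nphp-4, chrV:11843775-11843798, minus strand: ttctcATTTCCATGACAACcagca
mks-2, chrII:6219491-6219514, minus strand: ctcatGTTTCCATGACAACcagct

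The third set gives 121 bases centred on the CEH-82 summit at the bound genes where that stretch touched no annotated exon. Each runs in the direction of the ciliary gene's transcription. Capitals mark GAGAGA read on either strand, the sequence that stood at 47.5% of all optimal summits.
xbx-6, chrV:9704556-9704676, plus strand: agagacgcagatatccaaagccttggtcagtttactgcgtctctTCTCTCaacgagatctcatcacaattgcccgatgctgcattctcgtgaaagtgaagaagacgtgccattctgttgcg
daf-10, chrIV:9147093-9147213, minus strand: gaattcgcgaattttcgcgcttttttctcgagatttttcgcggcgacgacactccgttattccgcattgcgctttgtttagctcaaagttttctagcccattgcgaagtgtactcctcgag
daf-19, chrII:10169530-10169650, minus strand: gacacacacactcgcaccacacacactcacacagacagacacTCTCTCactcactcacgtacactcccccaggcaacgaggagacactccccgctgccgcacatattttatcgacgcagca
klp-11, chrIV:8762603-8762723, minus strand: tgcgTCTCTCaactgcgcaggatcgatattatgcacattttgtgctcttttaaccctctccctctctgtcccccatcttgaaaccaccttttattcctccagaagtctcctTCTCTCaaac
ift-81, chrX:5298278-5298398, plus strand: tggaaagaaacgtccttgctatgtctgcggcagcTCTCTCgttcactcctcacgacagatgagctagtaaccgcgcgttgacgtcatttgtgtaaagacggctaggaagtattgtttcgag

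Of the IFT-A genes, 3 of 5 were bound, where 16% of all genes were. The count fell to 1 with windows from 500 bp upstream (all genes 13.1%). It fell to 0 with the nearest 5' end alone (all genes 11.9%). The counts by role here and below are small and were not tested against these shares. The strongest peak of any ciliary gene lay upstream of ift-43 (WBGene00016121), a subunit of the complex. Its signal was 135 in the optimal list, rank 410 of 3913, with 84.1 (rank 402) in replicate 1 and 49.96 (rank 495) in replicate 2. The peak spanned chrII:5661082-5661341 and its summit was 426 bp upstream of ift-43. It was also 18 bp downstream of the 5' end of mdt-26, a Mediator subunit gene on the other strand, inside a coding exon of mdt-26.

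The peak at daf-10 (WBGene00000906), another IFT-A subunit gene, had signal 81.3 (rank 1133), with 55.9 (rank 897) in replicate 1 and 26.1 (rank 1561) in replicate 2. It spanned chrIV:9147023-9147282 between genes. The summit lay 942 bp upstream of daf-10, near the edge of the window, and closer to 2 other genes. It was 284 bp upstream of rpb-12, an RNA polymerase subunit gene on the same strand, and 315 bp upstream of aly-2, an mRNA export factor gene on the other strand.

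At dyf-2 (WBGene00001118), the last bound IFT-A gene, the signal was 34.5 (rank 3204), with 13.97 (rank 4766) in replicate 1 and 18.1 (rank 2476) in replicate 2. The peak was therefore among the strongest 3913 in replicate 2 but not in replicate 1. It spanned chrIII:13687227-13687486, with the summit 912 bp upstream of dyf-2 and 88 bp downstream of the 5' end of cul-2, a ubiquitin ligase scaffold gene on the other strand, in its 5' UTR. For all 3 bound IFT-A genes the 5' end of another protein-coding gene was nearer to the summit. The remaining IFT-A genes, che-11 and ift-139, had no summit in a window in any list. Their nearest optimal summits were 10677 bp upstream and 19478 bp downstream of a 5' end.

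In IFT-B, 2 of 13 genes were bound, beside 16% of all genes. The gene ift-81 (WBGene00017973), a subunit that binds tubulin in other species, had a peak at chrX:5298208-5298467 with signal 68.7 (rank 1468), and 47.7 (rank 1198) and 24.4 (rank 1718) in the replicates. The summit was 223 bp upstream of ift-81 and 296 bp upstream of ags-3, a G protein regulator gene on the other strand, in an intron of an ags-3 transcript. The gene dyf-3 (WBGene00001119), the CLUAP1 relative of IFT-B, had a peak at chrIV:3399136-3399395 with signal 53.8 (rank 2049), and 34.9 (rank 1891) and 19.3 (rank 2289) in the replicates. Its summit lay 35 bp upstream of the outermost dyf-3 5' end, the shortest distance among the 9 genes, and 406 bp upstream of pdhb-1, a pyruvate dehydrogenase gene. At both genes the ciliary 5' end was the nearest.

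A further 6 IFT-B genes had a summit in the pooled but not the optimal list, with signals from 9.75 (che-13) to 22.2 (dyf-11). The gene dyf-11 had rank 4762 of the pooled list, with 12.6 (rank 5336) in replicate 1 and 7.22 (rank 6931) in replicate 2. The gene ift-20 followed with 19.4 (rank 5460), and 8.93 (rank 8798) and 8.81 (rank 5253) in the replicates. Both peaks lay beyond the strongest 3913 in either replicate. The core subunit genes che-2, osm-1 and osm-5 and the gene dyf-13 had no summit in a window in any list, and dyf-1 had one in replicate 2 alone (3.31, rank 26535).

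Among the transport motors, klp-11 (WBGene00002222), a motor subunit of kinesin-II, was bound. Its peak at chrIV:8762533-8762792 had signal 73.4 (rank 1335), with 49.97 (rank 1110) in replicate 1 and 27.1 (rank 1471) in replicate 2, and its summit was 597 bp upstream of the gene. It was the only bound ciliary gene with more than 1 optimal summit in its windows. The further peaks lay in introns at chrIV:8758684-8758943 (71.5, rank 1392) and chrIV:8757782-8758041 (31.2, rank 3528), upstream of short klp-11 transcripts. The protein-coding gene F20C5.11 overlaps klp-11 on the same strand and shared the first peak, 667 bp away. Both intronic peaks also lay in introns of F20C5.11, and for the stronger one the nearest protein-coding 5' end was that of F20C5.11, at 565 bp. The kinesin-II accessory subunit gene kap-1 (11.5) and the gene of the second ciliary kinesin, osm-3 (12.4), had summits in the pooled list and in both replicates but not in the optimal list. For kap-1 the replicate 2 summit (3.085, rank 29446) lay at another place than the pooled one, which was 102 bp upstream. The dynein genes che-3 and xbx-1 had weak summits in replicate 2 alone, at 3.15 and 3.58.

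No gene of the BBSome (7) and none of the transition zone and basal body (12) had an optimal summit in a window, where 16% of all genes did. Groups this small cannot show a departure from that share. With windows from 2000 bp upstream, 2 of the 12 were called, mks-6 and nphp-4 (all genes 20.3%). The transition zone genes tmem-107 and tctn-1, which the name rule does not cover, were bound, as described below. In the BBSome group, bbs-2 (11.5), bbs-8 (10.6) and bbs-9 (9.997) had pooled summits, all below the pooled median of 13.7. In the transition zone group, mksr-1 and che-10, which encodes the rootletin of the ciliary rootlet, had pooled summits of 17.3 and 17.2. Each was found in replicate 1 (16.9, rank 3962, and 15.5, rank 4250) and not in replicate 2. The kinase genes dyf-5 and dyf-18, whose products limit cilium length, had no summit in a window in any list.

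**Figure D1:**
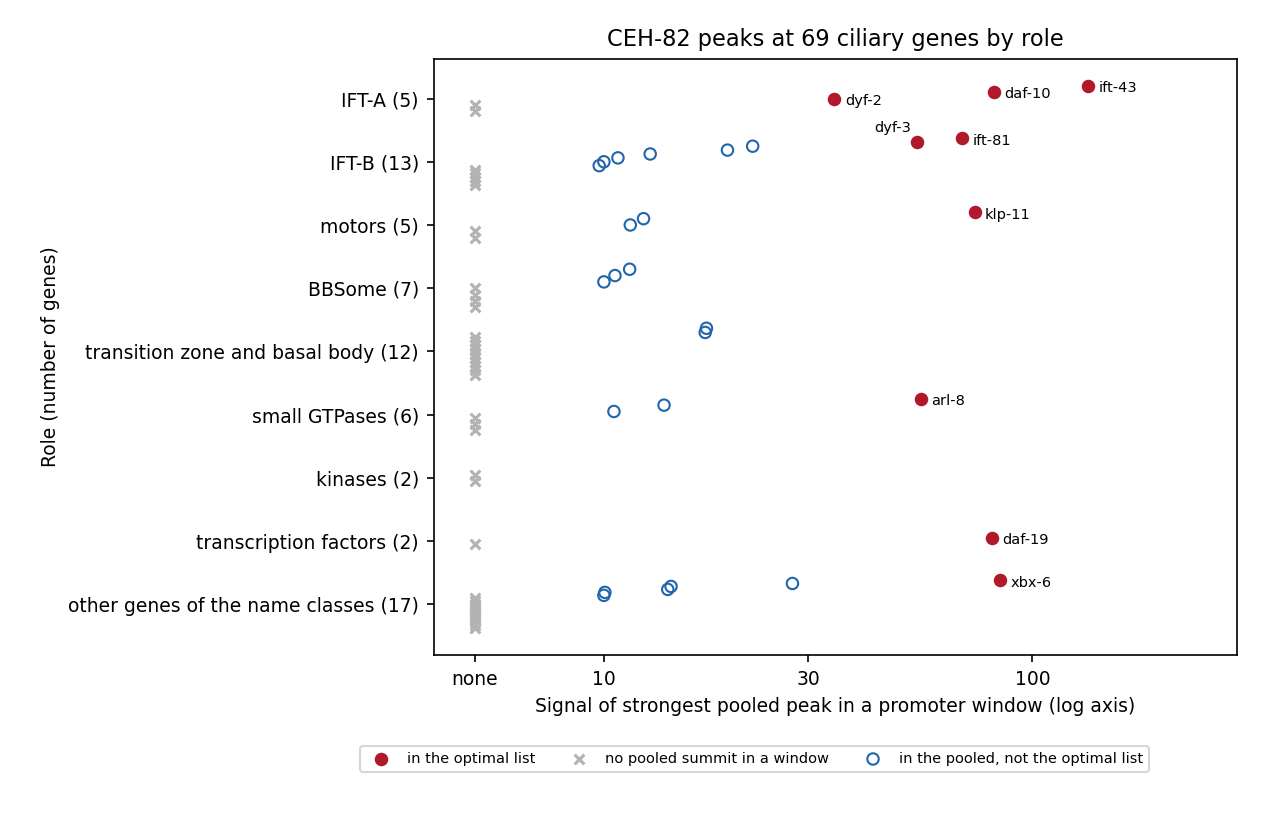
Signal of the strongest peak of the pooled list in a promoter window (horizontal log axis) for each of the 69 ciliary genes, grouped by role with the number of genes in brackets. Filled points are genes of the optimal list, open circles are genes of the pooled but not the optimal list, and crosses at "none" have no pooled summit in a window. The 9 named genes lie between 34.5 and 135, and no BBSome, transition zone or kinase gene among the 69 reaches them.

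Of the 2 transcription factor genes, daf-19 (WBGene00000914) was bound and che-1 had no summit in a window in any list. The daf-19 peak at chrII:10169460-10169719 had signal 80.3 (rank 1154), with 54.7 (rank 930) in replicate 1 and 30.01 (rank 1283) in replicate 2. No other gene's window held it. The gene has several promoters. The summit lay 244 bp upstream of the 5' end of transcript a and 245 bp upstream of that of transcript b, the long forms known to act in neurons without cilia. It lay 7917 bp upstream of the 5' end of transcript c. Which of the inner starts gives the form known to switch on ciliary genes cannot be told from the annotation used here. Transcripts d and e start 5138 and 6014 bp downstream of the summit. Weak pooled summits lay near the inner starts, with signals of 11.01 (250 bp upstream of transcript d) and 10.8 (645 bp upstream of transcript c), both below the pooled median.

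Among the 6 small GTPase genes, arl-8 (WBGene00000192), known for moving lysosomes and synaptic vesicle precursors, was bound. Its peak at chrIV:14797408-14797667 had signal 55.0 (rank 1989), with 30.7 (rank 2191) and 22.6 (rank 1890) in the replicates. The summit was 611 bp upstream of arl-8 but 6 bp inside nuo-3, a mitochondrial complex I gene on the other strand, in its 5' UTR, and 24 bp upstream of a further protein-coding gene. The ciliary membrane GTPase gene arl-13 had a pooled summit of 13.8, and arl-3 and the BBSome regulator gene arl-6 had none in any list.

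The remaining 17 genes of the name classes held 1 bound gene, xbx-6 (WBGene00009580), named for an X-box in its promoter. Its peak at chrV:9704486-9704745 had signal 84.1 (rank 1065), with 57.9 (rank 840) and 24.9 (rank 1677) in the replicates. The summit lay in an intron of xbx-6, 1561 and 1455 bp downstream of the 5' ends of the long transcripts and 740 bp upstream of the first of the inner 5' ends. No other gene's window held it. The gene osm-11 came closest to the optimal list without being in it. Its signal was 27.5 (rank 3928), with 11.01 (rank 6294) in replicate 1 and 17.2 (rank 2601) in replicate 2, and its summit lay 19 bp downstream of its 5' end. In the same group che-12 (14.3), a TOG-domain protein gene, and xbx-9 (14.1) had pooled summits.

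In all, 29 ciliary genes (42.0%) had a summit in the pooled list, where 33.7% of all protein-coding genes did. Of the 20 that were not in the optimal list, 12 had signals below the pooled median. Another 17 genes had a summit in a replicate's list but not in the pooled list, and 23 had none in any list. Over the 20 genes with a summit in both replicate lists, the replicate signals had a Spearman's rho of 0.857. It is given as a description, since the replicates share 1 control. The 20 also include the 9 genes of the optimal list, which was itself thresholded by IDR. At some others, such as kap-1 and bbs-9, the strongest summits of the replicates lay at different places. The 9 bound genes ranked between 402 and 4766 in replicate 1 and between 495 and 2476 in replicate 2.

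**Figure D2:**
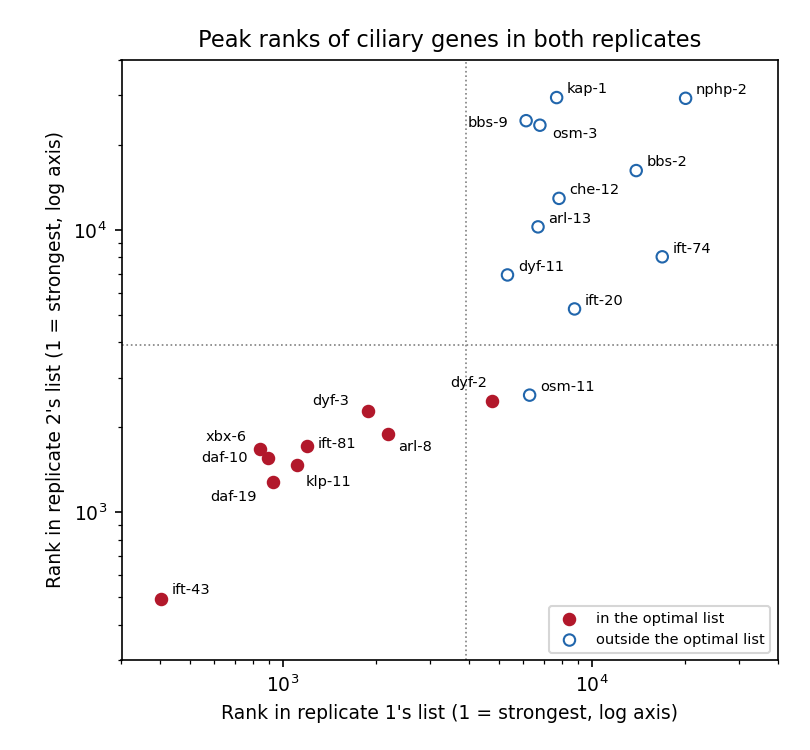
Rank of the strongest peak in a promoter window in replicate 1 (horizontal) and replicate 2 (vertical), both on log axes, for the 20 ciliary genes with a summit in both lists. Dotted lines mark rank 3913, and filled points are genes of the optimal list. The gene dyf-2 lies outside the strongest peaks of replicate 1 and osm-11 is inside those of replicate 2 alone.

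Bound ciliary genes often shared their peak with a neighbour. The peak lay in the window of another protein-coding gene at 7 of the 9 genes (77.8%), compared with 51.1% of all 3201 bound genes. The exceptions were daf-19 and xbx-6. The ciliary 5' end was the nearest to the summit at 5 of 9 genes (55.6%), compared with 73.3% of all bound genes. Another gene was nearer at ift-43, daf-10, arl-8 and dyf-2. The median summit lay 597 bp upstream of the 5' end, against 227 bp for all bound genes, and 5 of 9 summits were more than 500 bp upstream (55.6%, against 19.1%). The signals themselves were near those of bound genes in general, with medians of 73.4 and 63.8. The nearest upstream gene was on the opposite strand, pointing away, at 77.8% of bound and 31.7% of unbound ciliary genes, with 66.3% for all bound genes and 46.2% for all genes. Upstream gaps had a median of 605 bp at bound and 858 bp at unbound ciliary genes, beside 624 bp for all bound and 938 bp for all protein-coding genes. The bound ciliary genes had 2.67 annotated 5' ends on average and the unbound 1.65, beside 1.82 for all bound and 1.49 for all genes, and each 5' end adds a window. The part of gaps, divergent neighbours and 5' ends in which genes were bound was not tested.

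**Figure D3:**
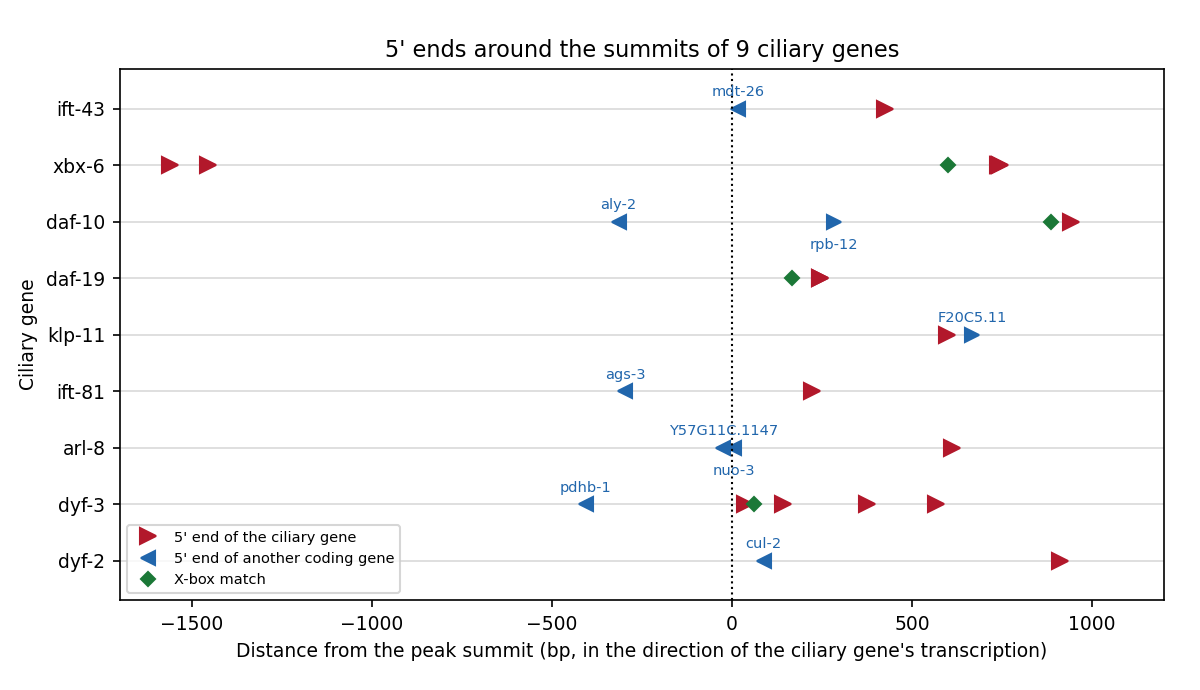
Position of 5' ends around the summit (dotted line at 0) of the 9 bound ciliary genes, in bp along the direction of the ciliary gene's transcription. Red arrowheads are 5' ends of the ciliary gene, blue arrowheads those of other protein-coding genes whose window holds the summit, and diamonds are X-box matches. At ift-43, daf-10, arl-8 and dyf-2 a blue arrowhead is nearer to the summit than any red one.

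The count depended on the rule that ties summits to genes. With windows from 500 bp upstream, 5 ciliary genes remained (7.25%, all genes 13.1%), and arl-8, daf-10, dyf-2 and xbx-6 were lost. With windows from 2000 bp upstream, 14 were called (20.3%, all genes 20.3%). When each summit went to the nearest protein-coding 5' end alone, 5 remained (7.25%, all genes 11.9%), namely daf-19, dyf-3, ift-81, klp-11 and xbx-6. The stronger part of the optimal list, its first 1956 peaks, left 6 genes (8.7%, all genes 9.41%). With the outermost 5' end of each gene alone, 8 remained (11.6%, all genes 14.9%), and xbx-6 was lost. Counting any overlap of peak and window gave 9 (13%, all genes 16.7%). The top list of replicate 2 gave 10 (14.5%, all genes 15.7%), adding osm-11, and that of replicate 1 gave 8 (11.6%, all genes 16%), without dyf-2. With the optimal list or a top list, the share of the 69 genes was not above that of all genes under any of these rules. The 52 genes with a named role lay above it with windows from 2000 bp upstream (23.1%), in the stronger part of the list (9.62%) and with the outermost 5' end (15.4%), and below or level with it in the others. In the pooled list both sets lay above it, with 42.0% and 44.2% beside 33.7%. Neither set thus stood apart from all genes in 1 direction. The genes daf-19, ift-81 and klp-11 were bound in all 10 alternative settings.

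Just inside the edge of the window lay dyf-2 and daf-10, with summits 912 and 942 bp upstream. Just outside lay nphp-4 (1305 bp, signal 41.1), dyf-17 (1504 bp, 42.6), mks-6 (1557 bp, 37.9), arl-13 (1631 bp, 61.8) and che-13 (1661 bp, 134). Each of these summits was nearer to another gene. The strong peak upstream of che-13, an IFT-B gene, was 808 bp from nlp-4, a neuropeptide gene, and the one at arl-13 was 63 bp from Y37E3.1. At 42 of the 69 genes (60.9%) no optimal summit lay within 5000 bp of a 5' end, beside 64.2% of all protein-coding genes. Within gene bodies, the channel gene osm-9 had an optimal summit in an intron (signal 68.6, rank 1474) and none in a window.

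Ciliary genes lay on every nuclear chromosome. On chromosome I none of 11 was bound, where 23.0% of all genes were, and on chromosome IV 4 of 11 were bound, where 15.2% of all genes were. Chromosome II held 2 bound genes of 12, where 14.5% of all genes were bound. Chromosomes III, V and X held 1 bound gene each of 13, 13 and 9, where 24.5%, 10.1% and 14.2% of all genes were bound.

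X-box matches were more frequent at ciliary genes than at all genes. In the optimal list, ciliary genes with a match were bound about as often as other genes with a match. Only 1 of 25 such ciliary genes had its match within 130 bp of an optimal summit, too few to compare shares at that distance. In the pooled list that share was higher for ciliary genes than for other genes with a match, and the difference was not tested. A pattern of 14 positions for the X-box was matched on both strands from 250 bp upstream to 50 bp downstream of the outermost 5' end. It matched at 25 of 69 ciliary genes (36.2%) and at 1.12% of all protein-coding genes, 223 in number. Among genes with a named role it matched at 23 of 52 (44.2%). Of the 25 ciliary genes with a match, 3 were bound (12%), namely daf-10, daf-19 and dyf-3. Of the 198 other genes with a match, 23 were bound (11.6%), and 16% of all genes were.

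Most X-box matches lay close to the 5' end, with a median position 53 bp upstream over 26 sites. The distance from match to nearest optimal summit had a median of 7951 bp and ran from 61 to 35518 bp. The nearest was that of dyf-3, 61 bp from the summit and the only one within 130 bp, the distance from centre to edge of a peak of 260 bp. That is 1 of 25 ciliary genes with a match, beside 6 of 198 other genes with a match (3.03%). The daf-19 match printed earlier was 166 bp from the summit and lay between it and the 5' end, the xbx-6 match was 600 bp away, and the daf-10 match was 886 bp away. In the pooled list 5 of the 25 genes had a match within 130 bp of a summit, beside 20 of the 198 other genes with a match (10.1%). Besides dyf-3 they were ift-74 at 37 bp, dyf-11 at 38 bp, ift-20 at 65 bp and che-13 at 79 bp, all IFT-B genes. Their pooled signals were 12.8, 22.2, 19.4 and 9.75, of which those of ift-74 and che-13 were below the pooled median. Of the 13 IFT-B genes, 8 had a pooled summit in a window, beside 33.7% of all genes. Whether such matches fall more often at IFT-B genes was not tested. Over all optimal peaks the X-box pattern matched within 100 bp of 0.409% of summits and in the same share of flanks 300 to 400 bp away.

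**Figure D4:**
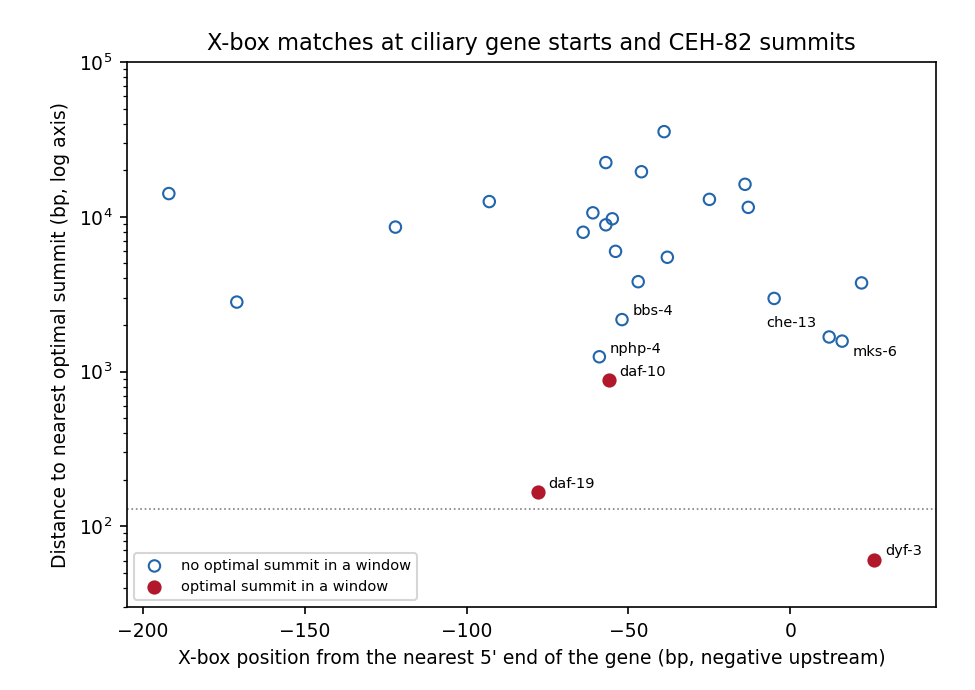
Position of 26 X-box matches from the 5' end of 25 ciliary genes (horizontal, bp, negative upstream) and their distance to the nearest optimal CEH-82 summit (vertical, bp, log axis). The dotted line marks 130 bp, and filled points are genes with an optimal summit in a window. Only the match of dyf-3, at 61 bp, lies under the line.

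GAGAGA, read on either strand up to 100 bp from a summit, was present at 4 of the 9 ciliary peaks (44.4%) and in the flanks of 2 (22.2%). Over all optimal peaks it was present at 47.5% of summits and in 11.2% of flanks. The 4 peaks were those of xbx-6, daf-19, ift-81 and klp-11, where the nearest copy was 13, 16, 23 and 53 bp from the summit, as the sequences above show. These 4 were among the 5 genes whose own 5' end was the nearest, an overlap that was not compared with other optimal peaks. At ift-43, daf-10, arl-8, dyf-3 and dyf-2 these letters were not in that window.

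A second list held 38 further genes of cilia that the name rule does not cover. Of these, 8 had an optimal summit in a window (21.1%), beside 16% of all genes. The top lists gave 8 in replicate 1 and 6 in replicate 2, a mean of 18.4% ± 3.72 (SD, n = 2), and the share of all genes lay within 1 SD of that mean. The strongest was tmem-107, a transition zone membrane protein gene, with signal 198 (rank 145), and 113 (rank 186) and 87.6 (rank 110) in the replicates. Its summit on chromosome I was 62 bp upstream of the gene. The ribosomal protein gene rps-26 lay on the other strand 395 bp away, and a snoRNA gene lay 123 bp away.

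The centriole gene hyls-1 had signal 152 (rank 309), with 87.3 (rank 361) and 67.3 (rank 234) in the replicates, and its summit lay 70 bp upstream of it and 181 bp from hpo-9. Both peaks were stronger than that of ift-43. The dynein intermediate chain gene dyci-1, which also serves transport outside cilia, had signal 93.0 (rank 878), with 45.5 and 49.4 in the replicates. Its summit was 809 bp upstream, inside short non-coding RNA genes.

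The other 5 had signals from 33.7 to 54.3. They were tctn-1 (54.3), a transition zone gene whose peak was nearer to the cytochrome c gene cyc-2.1; klp-20 (41.3), the motor partner of klp-11 in kinesin-II; rpi-2 (35.5), the worm relative of RP2; unc-119 (33.8), which encodes a chaperone of lipid-modified proteins; and elmd-1 (33.7). Thus both motor subunit genes of kinesin-II had optimal summits, at 597 bp upstream of klp-11 and 845 bp upstream of a 5' end of klp-20, while kap-1 did not. The klp-20 summit lay in an intron of that gene. Unlike klp-11, klp-20 was lost with windows from 500 bp upstream, in the stronger part of the list and with the outermost 5' end alone. The klp-20 signals were 26.02 (rank 2598) and 15.9 (rank 2828) in the replicates. Replicate 2 had tctn-1 (rank 4609) and rpi-2 (rank 6079) outside its strongest 3913 peaks. The elmd-1 summit lay 208 bp upstream of elmd-1, in an intron of hecw-1. It was nearer to the 5' ends of a non-coding RNA gene (83 bp) and a tRNA gene (174 bp). The strain carries the mutant allele unc-119(ed3), and whether reads at unc-119 came from the chromosomal gene or from a transgene copy cannot be told apart.

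For comparison, 28 genes that all neurons use, such as those of synaptic vesicle release and axonal transport, were counted in the same way. Of these 16 were bound (57.1%), beside 16% of all genes, with 16 in each replicate's top list and 15 in both. Their strongest member was snb-1, the synaptobrevin gene, with signal 289. The difference from the ciliary genes (13% ± 2.05, SD, n = 2) kept its direction in every setting, but the settings reuse the same data. The SD covers the top lists of 2 replicates and not the spread between genes. Both name lists were chosen with earlier results of these data known, and the difference between them has no test. The neuron-wide gene's own 5' end was the nearest at 15 of 16 peaks (93.8%), and 2 of 16 peaks were shared (12.5%). Their upstream gaps were wider, with a median of 3529 bp against 843 bp for the ciliary genes, and they had more 5' ends, 2.54 on average against 1.78. No gene of this list held an X-box match. The part of gap length and number of 5' ends in this difference was not tested.

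**Figure D5:**
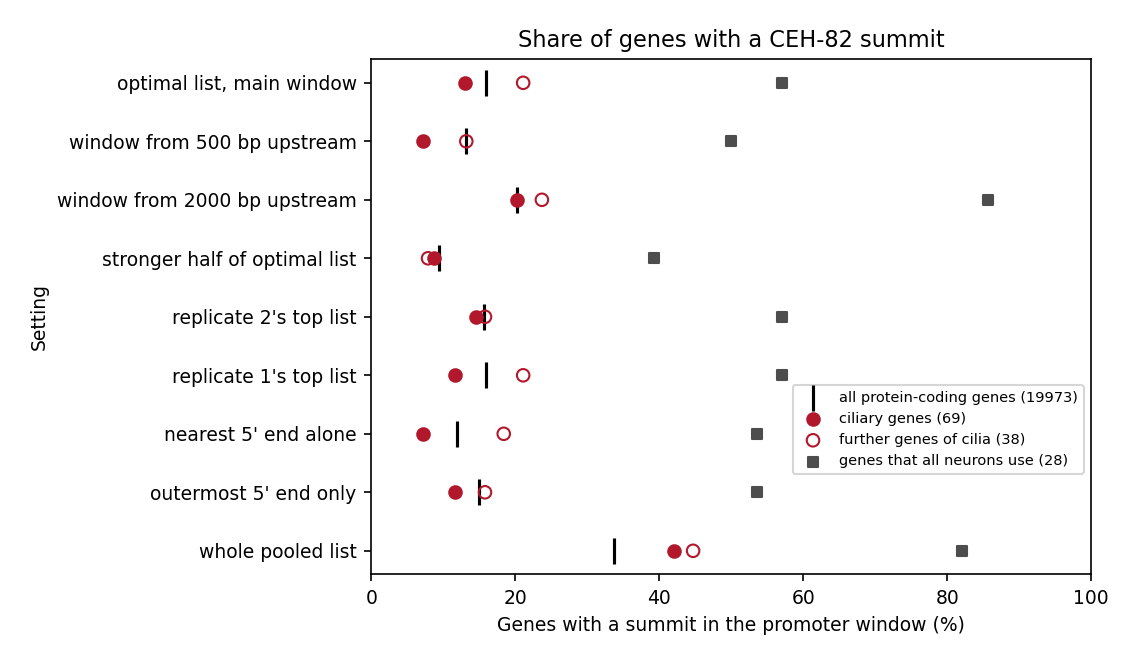
Percentage of genes with a CEH-82 summit in the promoter window (horizontal) under 9 of the settings used (vertical). Filled circles are the 69 ciliary genes, open circles 38 further genes of cilia, squares 28 genes that all neurons use, and black bars all protein-coding genes. Squares lie between 39.3% and 85.7% and above the other symbols in each setting.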

How the data were processed

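Peak lists on ce11 from 2 replicates of eGFP-CEH-82 ChIP-seq in L1 larvae were used. The deposited read-me files list 1 control alignment for peak calling in both replicates, so they can share its errors. In the sources used here no aligner, peak caller or IDR threshold was given. The deposited lists give the authors' signal per peak. They also give the authors' −log10 q-value, which has a ceiling of 3.82 reached by 83.6% of optimal peaks, so peaks were ranked by signal and then by q-value. Depth is unknown. Peak lists on ce10 were not used here.

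Summits were assigned to windows around transcript 5' ends of protein-coding genes (Ensembl release 115), and 0 peaks lay outside the chromosomes of the assembly. The assignment was tested on simulated data and recovered 300 of 300 planted summits. Python 3.11.15, numpy 2.4.6, pandas 2.3.3 and scipy 1.17.1 were used. Counts are given beside the share of all 19973 genes called by the same rule, with mean ± SD over the 3913 strongest peaks of each replicate. No statistical test of the gene list was made. The labels call the replicates biological and say nothing of separate cultures, so the SD may cover technical spread alone.

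Genes were named by rule: every bound ciliary gene, the 8 strongest pooled summits outside the optimal list, members of each role, every bound gene of the further list (40 names, 2 not found), those with an X-box match nearest a summit, and those just inside or outside the window. The ciliary genes and the lists were chosen with earlier results of these data known, and names were grouped by hand. Alternatives were other windows, peak midpoints, stronger peaks, each replicate, the pooled list, other 5' ends, overlaps, and a looser X-box. Some alternatives for the further and neuron-wide lists, and the count of genes with a named role, were added after the data were seen.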

Additional observations from a re-analysis of the deposited data

How the results depend on the processing

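The count of 9 bound ciliary genes was 5 with windows from 500 bp, 14 with windows from 2000 bp, 29 in the whole pooled list and 5 with the nearest 5' end alone. It stayed within 1.5 times under midpoints, the stronger peaks, outermost 5' ends and overlaps, and ran from 8 to 10 with each replicate left out. The gene dyf-2 was lost without replicate 2, and osm-11 was gained without replicate 1. The 5 genes whose own 5' end was nearest to the summit were 5 without either replicate. For the 38 further genes the count of 8 was 5 with windows from 500 bp (13.2%, all genes 13.1%), 3 in the stronger peaks (7.89%, below the 9.41% of all genes) and 17 in the pooled list (44.7%, all genes 33.7%), and ran from 6 to 8 with each replicate left out. The 16 neuron-wide genes stayed within 1.5 times in all settings (11 to 24). X-box matches rose from 25 to 43 ciliary genes with up to 1 mismatch, where 15.7% of all genes matched, and were 32 (46.4%) in the wide window, where 4.54% of all genes matched. No paired analysis was possible because there was 1 group. Depth is unknown, so genes without a summit are not shown to be unbound, and 2 replicates limit the precision of every spread.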
